A study of Mus musculus with 5 samples.

Results

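The collagen genes described here are the 3 main chains of collagen VI (Col6a1, Col6a2, Col6a3), the chains of the fibril-forming collagens I, III and V (Col1a1, Col1a2, Col3a1, Col5a1, Col5a2) and Col12a1, a collagen that sits on the surface of fibrils. They are 9 of the 19938 mouse genes measured. They were chosen from these same arrays, to set Col6a1 and Col6a2 beside collagens that were high in the second normal ductal culture as well, and each gene is read from its only probe set that carries 1 gene symbol. The contrast between the groups and between the normal ductal arrays therefore chose them, and their levels stand as a description with no test.

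The study profiled 5 cultures of mouse pancreatic cells on Affymetrix whole-transcript arrays. The PDAC group holds 3 primary cultures of pancreatic ductal adenocarcinoma, with the genotype Pdx-1CreAPCL/+p53L/L: Cre under the Pdx-1 promoter, which is active in the pancreatic epithelial lineage, 1 floxed Apc allele and a floxed p53 pair. The normal ductal group holds 2 cultures with the genotype Pdx-1Cre p53L/L, so both groups carry the p53 alleles and the Apc allele is the labelled difference. The title of normal ductal replicate 2 names neither Cre nor the word ductal, and its other labels call it normal pancreatic ductal cells. The title of PDAC replicate 3 adds the words mutant cell. All cultures were grown in RPMI with serum for few passages, and the labels name no sex, age or animal, so whether replicates came from separate animals is not given and every spread below is that between cultures.

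Collagens are secreted trimers wound from Gly-X-Y repeats. The fibril-forming types I, III and V are made as procollagens, trimmed outside the cell and laid down as banded fibrils, with collagen V setting fibril diameter and collagen XII linking fibril surfaces. Collagen VI is built differently: an alpha-1, an alpha-2 and an alpha-3 chain join into a monomer inside the cell, and the monomers form beaded microfibrils near cell surfaces and basement membranes. In the pancreas, stellate cells and fibroblasts are the textbook source of fibrillar collagen, and pancreatic cancer is known for a dense collagen stroma.

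Col6a1 and Col6a2 stood apart between the groups, while the other 7 genes were at least 1.51 higher in normal ductal replicate 2 than in normal ductal replicate 1. Col6a1 signal (log2 throughout) was 9.96, 10.27 and 10.43 in PDAC replicates 1, 2 and 3, against 6.88 and 7.10 in normal ductal replicates 1 and 2. The PDAC values lie within 0.47 of each other, and the lowest of them is 2.86 above the higher normal ductal value. The means were 10.22 ± 0.24 (SD, n = 3) in PDAC and 6.99 ± 0.15 (SD, n = 2) in normal ductal cultures, a difference of 3.23 (SE 0.18) or 9.38-fold if the deposited scale is log2.

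Col6a2 signal was 9.52, 9.49 and 9.97 in PDAC replicates 1, 2 and 3, against 7.31 and 7.58 in normal ductal replicates 1 and 2. All PDAC values again lie above both normal ductal values, here by at least 1.91. The means were 9.66 ± 0.27 (SD, n = 3) in PDAC and 7.44 ± 0.19 (SD, n = 2) in normal ductal cultures, a difference of 2.22 (SE 0.21) or 4.65-fold. Of the 9 genes, these are the pair whose normal ductal arrays differ by less than 1, with replicate 2 above replicate 1 by 0.21 for Col6a1 and 0.28 for Col6a2.

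Col6a3, the large chain that completes the collagen VI monomer, did not share this profile. Its signal was 10.68, 8.35 and 8.35 in PDAC replicates 1, 2 and 3, against 6.17 and 8.07 in normal ductal replicates 1 and 2. PDAC replicate 1 is far above the rest, and PDAC replicates 2 and 3, which hold the same deposited value, lie only 0.28 above normal ductal replicate 2. The means were 9.13 ± 1.35 (SD, n = 3) in PDAC and 7.12 ± 1.35 (SD, n = 2) in normal ductal cultures, a difference of 2.01 (SE 1.08). Against normal ductal replicate 2 alone the PDAC mean was 1.05 higher for Col6a3, 3.12 for Col6a1 and 2.08 for Col6a2.

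**Figure D1:**
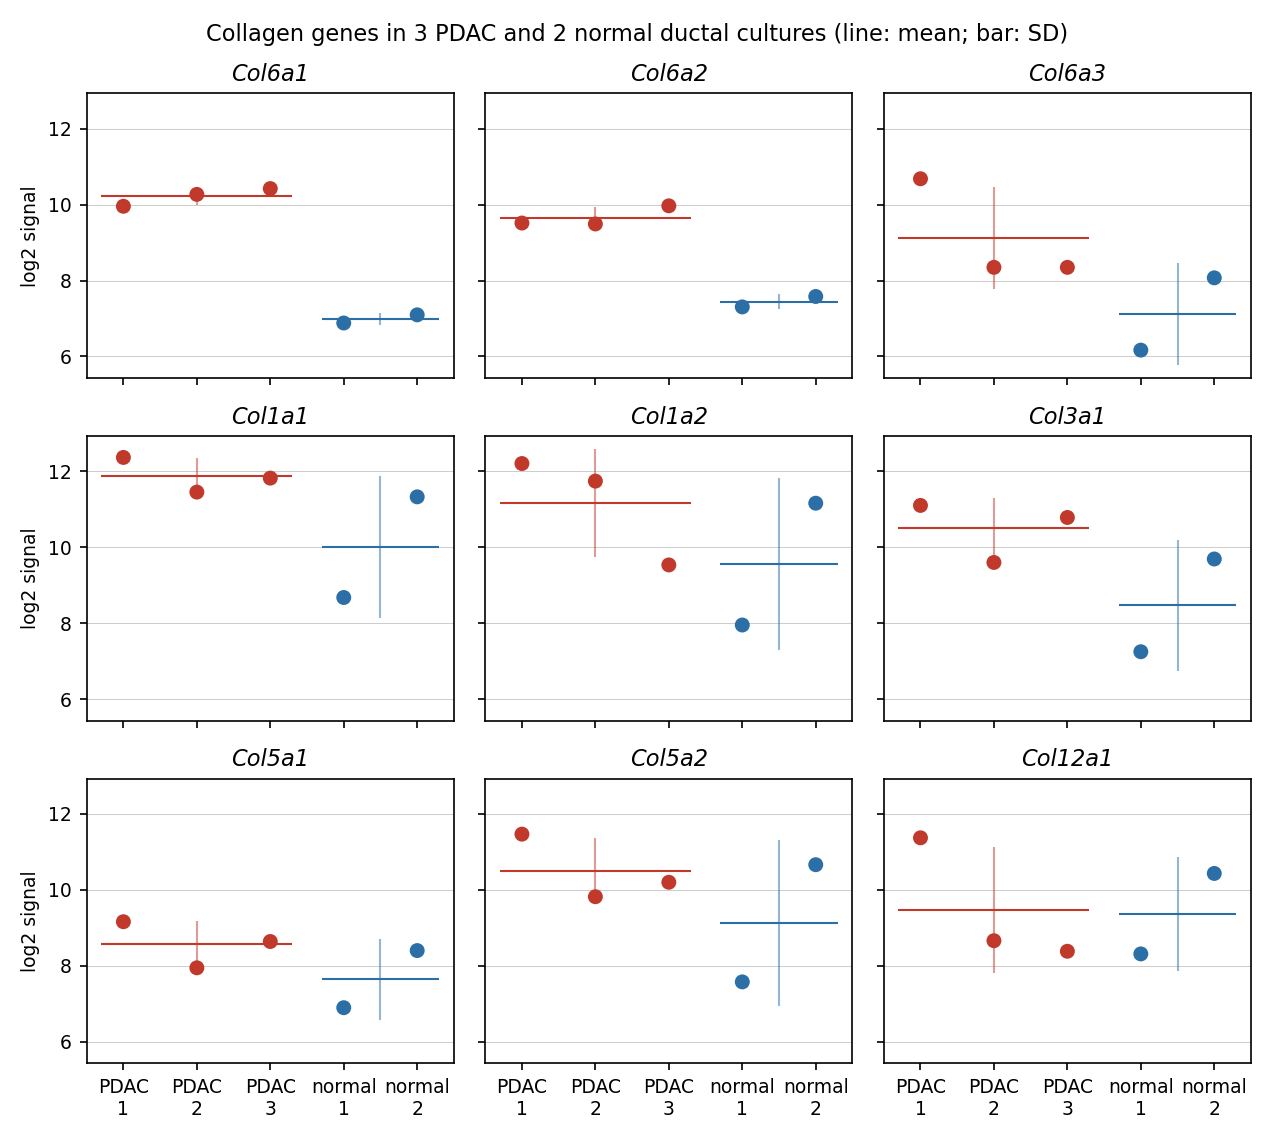
Each panel plots 1 collagen gene, with log2 signal on the vertical axis and the 3 PDAC (red) and 2 normal ductal (blue) arrays along the horizontal axis; lines are group means and bars 1 SD. Both normal ductal points are low for Col6a1 and Col6a2, while for the other 7 genes normal ductal replicate 2 is at least 1.51 above replicate 1.

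The genes of these chains lie as follows in GRCm38, each a protein-coding gene in the annotation. Col6a1 (chr10:76708792-76726044) and Col6a2 (chr10:76595756-76623630) are neighbours on chromosome 10 with 85161 bases and no measured gene between them. Col6a3 (chr1:90766860-90844001) is on chromosome 1, where Col3a1 (chr1:45311538-45349706) and Col5a2 (chr1:45374331-45503282) form another neighbouring pair, 24624 bases apart. Col1a1 is at chr11:94936224-94953042, Col1a2 at chr6:4505618-4541543, Col5a1 at chr2:27886381-28039510 and Col12a1 at chr9:79598987-79721141.

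Genes beside the Col6a1 and Col6a2 pair had smaller differences. The pair was chosen on its difference between the groups, so nothing is read from that contrast. The nearest 3 measured genes on each side are Ftcd, Spatc1l and Lss, and Pcbp3, Gm10787 and Slc19a1. Their differences between PDAC and normal ductal means ran from -0.12 to 0.40, with limma's adjusted p from 0.552 to 0.909 (Benjamini-Hochberg over all genes). Lss, a sterol synthesis enzyme, had 8.83, 8.87 and 9.82 in PDAC, against 8.94 and 8.60 in normal ductal cultures. Slc19a1, a folate carrier, had 9.36, 8.72 and 7.86 in PDAC, against 8.28 and 8.37 in normal ductal cultures. Spatc1l, Ftcd and Gm10787 lay between 5.02 and 6.13 on every array, with equal values on several arrays, so they had little room to differ. The groups overlap for all 6. Among all genes, every PDAC array was above both normal ductal arrays in 13.6% and below both in 12.8%. The 6 genes nearest to Col3a1 and Col5a2 had differences from -0.82 to 0.40 and adjusted p from 0.313 to 0.971, and only for Wdr75, a ribosome biogenesis factor, did the groups not overlap, with 10.53, 10.36 and 10.25 in PDAC, against 10.04 and 9.99 in normal ductal cultures.

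The letters before the start sites differ between the chains. RefSeq's promoter table for GRCm38.p6 held 6 of the 9 genes, Col6a1, Col6a2, Col6a3, Col1a2, Col3a1 and Col5a1, and the 250 bases before the start were read for each. The starts used for Col6a3 and Col5a1 lie inside the gene spans given above, so their windows partly overlap those spans. Printed are Col6a1 and Col6a2, which were low in both normal ductal cultures, the third collagen VI chain and Col1a2, each 5′ to 3′ on the gene's own strand. Capitals mark matches, on either strand, to any of 5 motifs: the AP-1 motif written TGANTCA, the CCAAT box, the GC box written GGGCGG, the TATA box written TATAAA and the E-box written CAGGTG.
Col6a1 (chr10:76726045-76726294, minus strand): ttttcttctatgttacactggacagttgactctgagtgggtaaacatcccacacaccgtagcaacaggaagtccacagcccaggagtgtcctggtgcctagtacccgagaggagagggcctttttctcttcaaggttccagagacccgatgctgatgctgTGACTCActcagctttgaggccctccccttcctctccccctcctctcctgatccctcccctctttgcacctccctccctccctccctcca
Col6a2 (chr10:76623631-76623880, minus strand): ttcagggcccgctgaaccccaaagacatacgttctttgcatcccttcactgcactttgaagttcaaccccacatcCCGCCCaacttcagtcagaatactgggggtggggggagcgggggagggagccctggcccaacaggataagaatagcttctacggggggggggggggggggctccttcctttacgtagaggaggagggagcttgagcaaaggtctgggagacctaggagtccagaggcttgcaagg
Col6a3 (chr1:90843972-90844221, minus strand): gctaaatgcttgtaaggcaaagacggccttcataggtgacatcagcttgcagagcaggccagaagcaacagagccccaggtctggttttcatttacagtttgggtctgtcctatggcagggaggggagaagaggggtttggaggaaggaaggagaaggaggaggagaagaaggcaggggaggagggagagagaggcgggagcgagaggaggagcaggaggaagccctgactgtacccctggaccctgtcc
Col1a2 (chr6:4505368-4505617, plus strand): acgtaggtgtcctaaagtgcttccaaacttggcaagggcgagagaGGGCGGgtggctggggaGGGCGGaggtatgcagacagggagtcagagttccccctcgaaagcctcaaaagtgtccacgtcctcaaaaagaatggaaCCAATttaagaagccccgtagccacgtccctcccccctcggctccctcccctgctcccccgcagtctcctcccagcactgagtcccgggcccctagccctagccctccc

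Col6a1 holds 1 match to the AP-1 motif, from position -90 to -84 relative to the start, and none to the other 4. The table's 32851 promoters hold an AP-1 match in 6.75%. Col6a2 has a pair of annotated starts: the window printed holds 1 GC-box match, and the window of the other start, which lies downstream inside the gene, holds 3, of which a pair overlap. GC-box matches were also in Col1a2 and Col5a1, and in 32.7% of all promoters. Col1a2 adds a CCAAT box, found in 33.8%, and Col3a1 a TATA box, found in 12.4%, while Col6a3 has no match to any of the 5. None of the 6 has the E-box form CAGGTG, found in 17.2%, and other E-box forms were not searched. The Col6a1 window is 63.2% C or T, more than 97.5% of all promoters, and the Col6a3 window is 32.8% C or T, more than 0.852%. A match is a run of letters in this window and says nothing of binding.

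The fibril-forming chains were lowest in normal ductal replicate 1, and their PDAC mean minus normal ductal replicate 2 ran from -0.17 for Col5a2 to 0.80 for Col3a1. Col1a1, the alpha-1 chain of collagen I, had 12.37, 11.45 and 11.82 in PDAC replicates 1, 2 and 3, against 8.68 and 11.33 in normal ductal replicates 1 and 2. The groups do not overlap, but the lowest PDAC value is only 0.13 above normal ductal replicate 2. The means were 11.88 ± 0.46 (SD, n = 3) in PDAC and 10.00 ± 1.88 (SD, n = 2) in normal ductal cultures, a difference of 1.88 (SE 0.92).

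Col1a2, which pairs with Col1a1 in the collagen I trimer, had 12.21, 11.74 and 9.54 in PDAC replicates 1, 2 and 3, against 7.95 and 11.16 in normal ductal replicates 1 and 2. PDAC replicate 3 lies below normal ductal replicate 2, with a difference of -1.63, so the groups overlap. The means were 11.16 ± 1.43 (SD, n = 3) in PDAC and 9.56 ± 2.27 (SD, n = 2) in normal ductal cultures, a difference of 1.61 (SE 1.40). Against the mean of PDAC replicates 1 and 2, PDAC replicate 3 differed by -2.44 for Col1a2 and by -0.09 for Col1a1, so the chains of 1 trimer parted in this culture.

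Col3a1, whose product forms fibrils with collagen I, had 11.10, 9.60 and 10.79 in PDAC replicates 1, 2 and 3, against 7.25 and 9.69 in normal ductal replicates 1 and 2. PDAC replicate 2 lies just under normal ductal replicate 2, and the other PDAC cultures are more than 1 above it. The difference of means was 2.03 (SE 0.95).

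Both collagen V chains were likewise high in normal ductal replicate 2. Col5a2 had 11.47, 9.82 and 10.20 in PDAC replicates 1, 2 and 3, against 7.57 and 10.66 in normal ductal replicates 1 and 2, with PDAC replicate 1 alone above normal ductal replicate 2. Col5a1 had 9.16, 7.95 and 8.64 in PDAC replicates 1, 2 and 3, against 6.89 and 8.40 in normal ductal replicates 1 and 2, with PDAC replicates 1 and 3 above normal ductal replicate 2. The differences of means were 1.38 (SE 1.16) for Col5a2 and 0.93 (SE 0.64) for Col5a1. Against normal ductal replicate 2 alone they shrink to -0.17 and 0.18.

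Col12a1, the fibril-associated chain, had 11.37, 8.66 and 8.38 in PDAC replicates 1, 2 and 3, against 8.31 and 10.43 in normal ductal replicates 1 and 2. Here PDAC replicate 1 and normal ductal replicate 2 are high and the other 3 arrays low, across both groups. The means were 9.47 ± 1.65 (SD, n = 3) in PDAC and 9.37 ± 1.50 (SD, n = 2) in normal ductal cultures, a difference of 0.10 (SE 1.28) that is far inside the spread of either group. Without PDAC replicate 1 the difference was -0.85.

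Normal ductal replicate 1 was the lowest of the 5 arrays for all 9 collagen genes, against 14.1% of all genes. PDAC replicate 1 was above normal ductal replicate 2 for all 9, a share not counted over all genes. Every PDAC array was above both normal ductal arrays for 4 of the 9 (Col6a1, Col6a2, Col6a3 and Col1a1), where 13.6% of all genes are. Normal ductal replicate 2 was more than 1 above replicate 1 for 7 of the 9, against 2.93% of all genes. The rule picked the genes on these same arrays, so nothing is read from those shares. The median difference between PDAC and normal ductal means was 1.88 over the 9 and 0.01 over all genes, and the median of replicate 2 minus replicate 1 was 2.12 over the 9 and -0.05 over all genes.

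**Figure D2:**
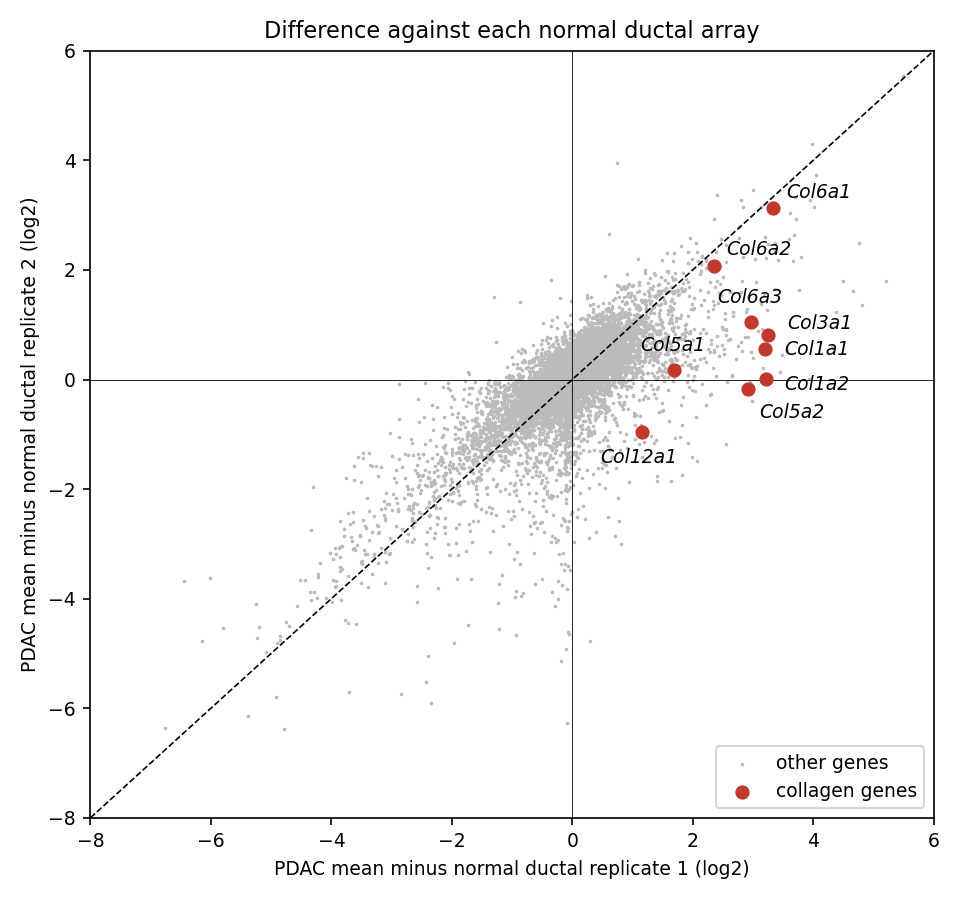
Each point is 1 of 19938 genes; the horizontal axis is the PDAC mean minus normal ductal replicate 1 and the vertical axis the PDAC mean minus normal ductal replicate 2, both in log2, and the collagen genes are red. Col6a1 (3.34 and 3.12) and Col6a2 (2.35 and 2.08) lie near the dashed line of equal differences, and the other 7 lie below it, with vertical values from -0.96 to 1.05. Both axes use the same PDAC mean, so the points are not independent across axes.

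The PDAC cultures also differed among themselves. PDAC replicate 1 was the highest array for 7 of the 9 genes, the exceptions being Col6a1 and Col6a2, a share not counted over all genes. PDAC replicate 1 was more than 1 above both other PDAC arrays for Col5a2, Col6a3 and Col12a1, that is 3 of 9, against 0.893% of all genes. Its distance from the mean of PDAC replicates 2 and 3 was 2.85 for Col12a1, 2.34 for Col6a3 and 1.46 for Col5a2, but -0.39 for Col6a1 and -0.21 for Col6a2. PDAC replicate 3 was more than 1 below both other PDAC arrays for Col1a2, 1 of 9 against 1.04% of all genes. PDAC replicate 2 was more than 1 below both others for Col3a1, 1 of 9 against 0.612%. The span of the PDAC arrays exceeded 1 for 6 of the 9, against 9.43% of all genes, and ran from 0.47 for Col6a1 to 2.99 for Col12a1. The rule picked the genes on these same arrays, and all 9 have a range over 2, against 6.52% of all genes. Nothing is therefore read from the shares given here for the PDAC cultures.

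To compare profiles, each gene was centred on its own mean and the root mean square difference between 2 genes was taken over the 5 arrays, a description with no test. Col1a1 and Col3a1 were closest, at 0.28, then Col1a1 and Col5a2 at 0.39. Col6a1 and Col6a2 were 0.51 apart, while Col6a3 was 1.28 from Col6a1 and 1.08 from Col6a2, and 0.59 from Col5a2. Col1a1 and Col1a2, chains of 1 trimer, were 0.90 apart. Col6a1 and Col12a1 were farthest, at 2.03.

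**Figure D3:**
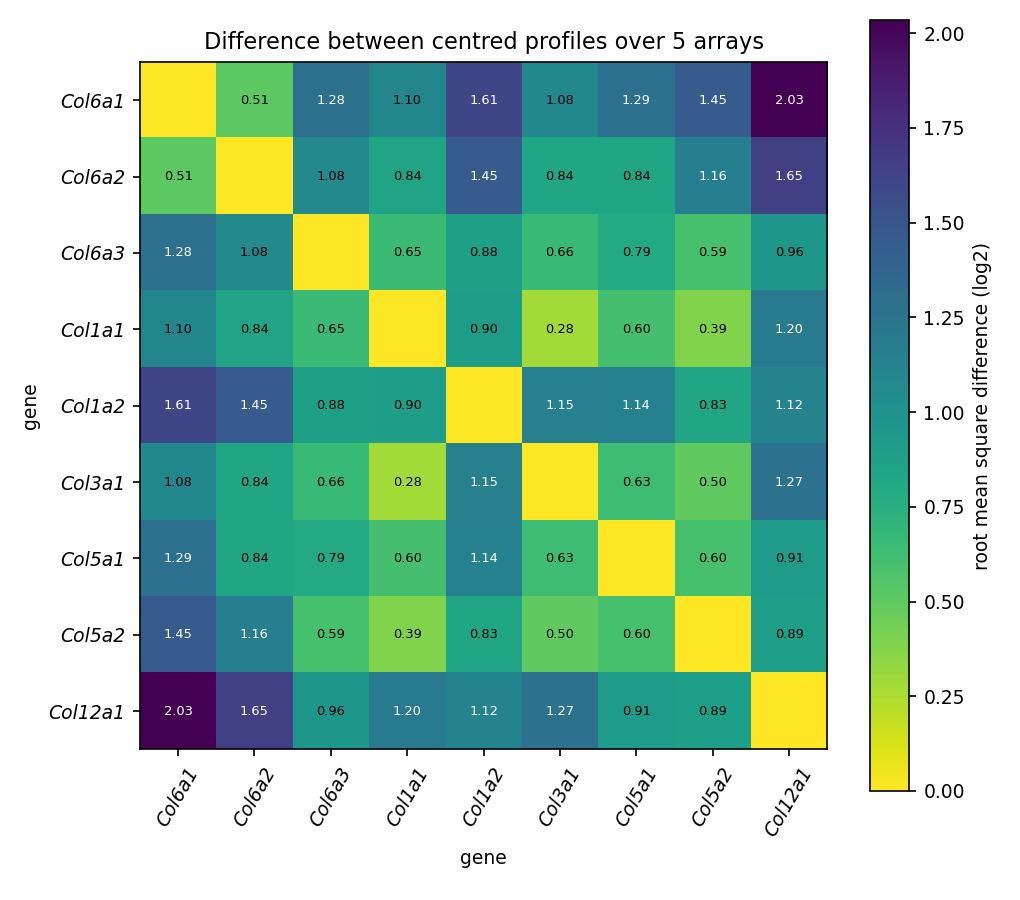
Rows and columns are the 9 collagen genes, and each cell gives the root mean square difference (log2) between 2 centred profiles over the 5 arrays, with pale cells for like profiles. Col6a1 and Col6a2 form a like pair (0.51), Col1a1, Col3a1 and Col5a2 a like trio (0.28 to 0.50), and Col6a3 is nearer to Col5a2 (0.59) than to Col6a1 (1.28).

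Among the 1300 genes with a range over 2 (6.52% of all genes, the 9 among them), the 6 nearest to Col6a1 by this measure were Igfbp4 (0.21), Igfbp6 (0.31), Snai2 (0.34), Cdkn2c (0.37), Glp1r (0.38) and Grem1 (0.39). Igfbp4 and Igfbp6 encode secreted binding proteins of insulin-like growth factors, Snai2 a transcription factor of the mesenchymal state and Grem1 a secreted antagonist of bone morphogenetic proteins. Igfbp4 signal was 10.59, 10.68 and 10.59 in PDAC replicates 1, 2 and 3, against 6.93 and 7.30 in normal ductal replicates 1 and 2. It is low in both normal ductal arrays and even across PDAC, as Col6a1 is.

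The 6 nearest to Col1a1 were Rcn3 (0.10), Fstl1 (0.21), Pdgfra (0.24), Clec2d (0.25), Bnc2 (0.28) and Aebp1 (0.28). Rcn3 encodes a calcium-binding protein of the secretory pathway, Pdgfra a growth factor receptor used as a fibroblast marker and Aebp1 a secreted collagen-binding protein. Rcn3 signal was 11.35, 10.56 and 10.82 in PDAC replicates 1, 2 and 3, against 7.91 and 10.52 in normal ductal replicates 1 and 2, tracking Col1a1 in every array. None of the 9 collagens was among either set of 6, though Col3a1, at 0.284 from Col1a1, lay just beyond Aebp1, at 0.282.

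Markers of other cell types moved with normal ductal replicate 2. The mean of 20 fibroblast and stellate cell markers was 8.31, 8.52 and 8.28 in PDAC replicates 1, 2 and 3, against 6.92 and 8.80 in normal ductal replicates 1 and 2, and 14 of the 20 exceeded replicate 1 by more than 1 in normal ductal replicate 2, where 2.93% of all genes did, which is the background of each such marker count. Prrx1 had 10.11, 10.82 and 10.61 in PDAC replicates 1, 2 and 3, against 6.59 and 10.51 in normal ductal replicates 1 and 2. Dcn had 5.58, 9.10 and 10.48 in PDAC replicates 1, 2 and 3, against 7.58 and 11.39 in normal ductal replicates 1 and 2. Acinar markers averaged 5.41, 5.51 and 5.45 in PDAC replicates 1, 2 and 3, against 5.42 and 7.02 in normal ductal replicates 1 and 2, led by Ctrb1 (6.08 and 12.26 in normal ductal replicates 1 and 2) and Cpa1 (5.54 and 10.12), with 4 of 11 more than 1 higher in replicate 2. Islet markers averaged 5.19, 5.14 and 5.17 in PDAC replicates 1, 2 and 3, against 5.80 and 7.33 in normal ductal replicates 1 and 2, with 7 of 13 so, led by Iapp (6.77 and 10.34) and Ins2 (6.10 and 9.21). Endothelial markers averaged 5.86, 5.78 and 5.78 in PDAC replicates 1, 2 and 3, against 6.08 and 7.13 in normal ductal replicates 1 and 2, with 6 of 14 so, led by Emcn (6.21 and 8.86) and Cdh5 (6.47 and 8.87). The same array thus held high fibrillar collagen and higher fibroblast, acinar, islet and endothelial list means than normal ductal replicate 1. The median rise from replicate 1 was 1.84 for fibroblast and stellate, 0.67 for acinar, 1.16 for islet and 0.82 for endothelial markers. The part of these markers in the collagen levels was not tested, and in bulk RNA fewer cells of a type and less RNA per cell cannot be told apart.

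Col6a1 and Col6a2 differed by 0.21 and 0.28 between the normal ductal arrays, a comparison that helped to choose them. A link between any of the 9 collagen genes and the markers was not tested. Leukocyte markers averaged 5.38, 5.01 and 5.18 in PDAC replicates 1, 2 and 3, against 5.48 and 5.88 in normal ductal replicates 1 and 2 (2 of 14 more than 1 higher in normal ductal replicate 2, Lyz2 and Fcer1g), pericyte and smooth muscle markers 7.48, 6.98 and 6.52 in PDAC replicates 1, 2 and 3, against 7.02 and 7.42 in normal ductal replicates 1 and 2 (2 of 11, Cspg4 and Actg2) and Schwann markers 5.09, 5.10 and 5.34 in PDAC replicates 1, 2 and 3, against 5.88 and 5.61 in normal ductal replicates 1 and 2 (0 of 6, with Erbb3 and Ngfr the most different). Mesothelial markers averaged 5.29, 5.95 and 8.57 in PDAC replicates 1, 2 and 3, against 6.97 and 7.38 in normal ductal replicates 1 and 2 (3 of 9, led by Upk1b and Lrrn4), with Upk1b at 4.63, 4.87 and 10.77 in PDAC. In that list Muc16, a membrane mucin also made by epithelia, was called lower in PDAC, the sole call in the 9 marker lists and named after its values were seen. It had 3.68, 3.69 and 3.79 in PDAC replicates 1, 2 and 3, against 6.36 and 6.41 in normal ductal replicates 1 and 2, a difference of -2.67 (SE 0.05, adjusted p = 0.017). The call was lost without PDAC replicate 1, 2 or 3 (limma, adjusted p = 0.262, 0.347 and 0.0674) and with the replicate number as a block (adjusted p = 0.44). The block fit takes its difference without PDAC replicate 3, since no normal ductal culture has number 3. Duct and epithelial markers averaged 6.19, 7.04 and 8.62 in PDAC replicates 1, 2 and 3, against 10.36 and 10.17 in normal ductal replicates 1 and 2. Both normal ductal arrays thus held the duct markers at high signal, and the PDAC arrays differ widely. Mmp7 (6.25 and 8.10) and Cftr (7.49 and 6.05) differed most between the normal ductal arrays. No marker is at 0 on any array, and no detection call was used here.

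**Figure D4:**
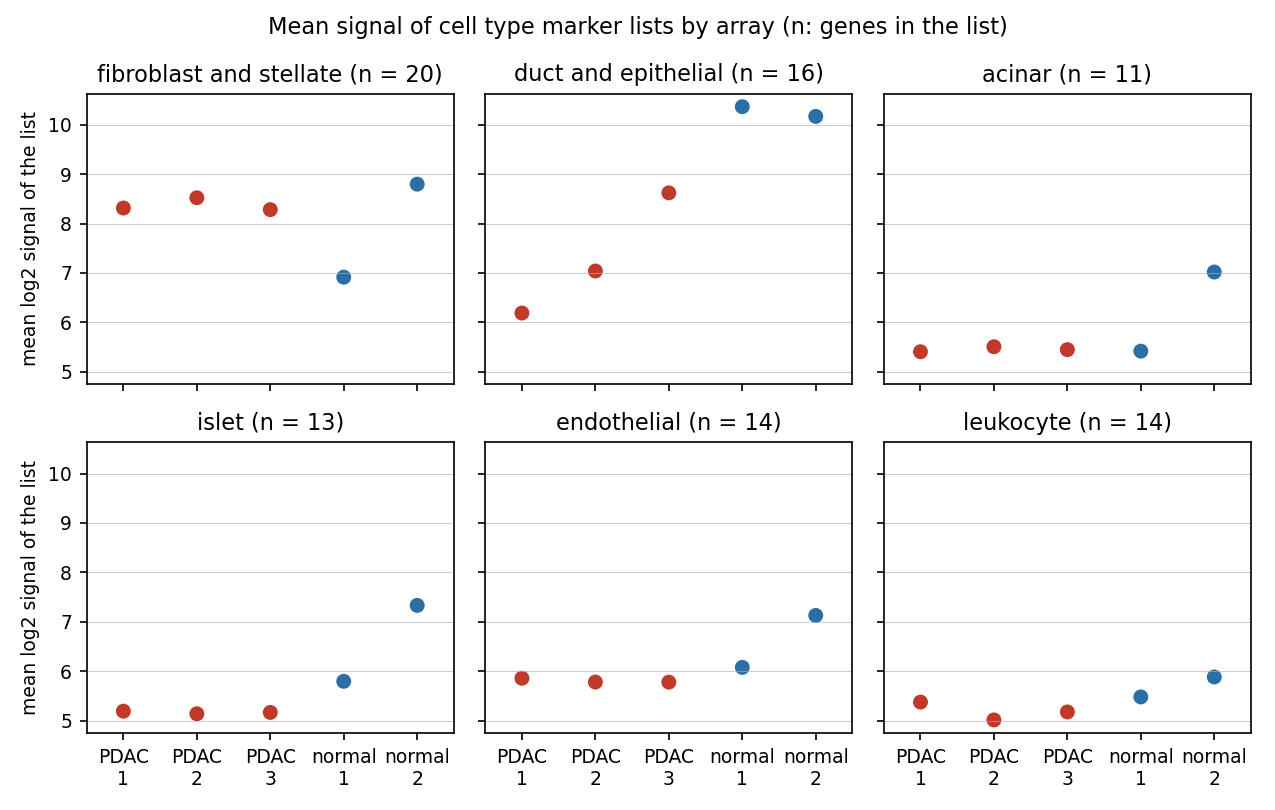
Each panel plots the mean log2 signal of 1 marker list (vertical axis) on each array, PDAC in red and normal ductal in blue. Normal ductal replicate 2 is above replicate 1 for fibroblast and stellate (8.80 and 6.92), acinar (7.02 and 5.42), islet (7.33 and 5.80) and endothelial markers (7.13 and 6.08), and duct and epithelial markers are highest in the normal ductal arrays.

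Other collagen chains had a median difference near 0. Of the 35 other chains measured, limma called 0 of 35 at an adjusted p under 0.05 over all genes, where 0.0552% of all genes were called. Before adjustment 1 higher in PDAC and 3 lower had a p under 0.05, where 6.5% and 6.86% of all genes were higher and lower. Their median difference was 0.05, and 4 of 35 had a range over 2 across the 5 arrays, Col4a1, Col4a2, Col8a1 and Col15a1. Many of the others were dim and nearly flat. Col10a1 (5.07), Col11a2 (6.63) and Col19a1 (5.35) each hold equal values on all 5 arrays. The median near 0 is therefore not read as a contrast with the 9 collagen genes. The basement membrane chains Col4a1 and Col4a2 had negative differences. Col4a1 had 9.11, 7.64 and 7.48 in PDAC replicates 1, 2 and 3, against 9.67 and 10.02 in normal ductal replicates 1 and 2, a difference of -1.77 (SE 0.60, adjusted p = 0.356), and Col4a2 had 8.89, 7.70 and 7.69 in PDAC replicates 1, 2 and 3, against 9.69 and 9.95 in normal ductal replicates 1 and 2, a difference of -1.73 (SE 0.46, adjusted p = 0.29). Both were below normal ductal levels in every PDAC culture, and neither passed the test.

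Col8a1, a network-forming short chain, had 9.41, 9.93 and 8.30 in PDAC replicates 1, 2 and 3, against 6.67 and 8.31 in normal ductal replicates 1 and 2, a difference of 1.72 (SE 0.77, adjusted p = 0.476). Col15a1, a basement membrane collagen, was high in normal ductal replicate 2 alone, with 7.30, 6.66 and 7.16 in PDAC replicates 1, 2 and 3, against 7.13 and 9.07 in normal ductal replicates 1 and 2. Col4a5 (0.62 (SE 0.22, adjusted p = 0.372)) and Col2a1 (0.46 (SE 0.17, adjusted p = 0.38)) were above normal ductal levels in every PDAC culture without passing. Without normal ductal replicate 1, the Col4a5 difference was 0.94 and passed (limma, adjusted p = 0.0473). The alternative collagen VI chains Col6a4, Col6a5 and Col6a6 had differences of 0.07, 0.19 and -0.15, with overlapping groups.

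Genes that fold and modify collagen in the endoplasmic reticulum had a positive median difference and no call. Limma called 0 of 23, against 0.0552% of all genes. Before adjustment (p under 0.05) 1 was higher in PDAC and 0 lower, against 6.5% and 6.86% of all genes. The median difference of the 23 was 0.42. In 9 of the 23 every PDAC culture was above both normal ductal cultures, and in 1 below, against 13.6% and 12.8% of all genes. Crtap, part of the prolyl 3-hydroxylation complex, had 11.08, 11.08 and 10.90 in PDAC replicates 1, 2 and 3, against 9.82 and 10.14 in normal ductal replicates 1 and 2, a difference of 1.04 (SE 0.13, adjusted p = 0.165). P3h4, of the same family of proteins, had 0.91 (SE 0.34, adjusted p = 0.393). Mia2, a cargo export factor of the endoplasmic reticulum, had 5.22, 7.16 and 7.78 in PDAC cultures, against 9.50 and 8.51 in normal ductal cultures, a difference of -2.28 (SE 0.93, adjusted p = 0.433).

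Of the genes that trim procollagen and crosslink fibrils, limma called 0 of 14, against 0.0552% of all genes. Before adjustment (p under 0.05) 2 were higher in PDAC and 2 lower, against 6.5% and 6.86% of all genes. The median difference of the 14 was 0.21. Pcolce, which enhances removal of the procollagen C-propeptide, had 12.76, 12.04 and 12.21 in PDAC replicates 1, 2 and 3, against 8.57 and 10.70 in normal ductal replicates 1 and 2, a difference of 2.70 (SE 0.74, adjusted p = 0.296). It is above both normal ductal arrays in every PDAC culture, and like the fibrillar chains it is lowest in normal ductal replicate 1. Adamts14, an N-propeptide protease, had 0.98 (SE 0.26, adjusted p = 0.284). On the other side, Tll1, a relative of the C-propeptidase Bmp1, had 6.79, 7.01 and 5.10 in PDAC cultures, against 8.67 and 9.02 in normal ductal cultures (-2.54 (SE 0.69, adjusted p = 0.295)), and the crosslinking transglutaminase Tgm2 had -1.25 (SE 0.36, adjusted p = 0.311).

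Collagen receptors lay on both sides of 0. Limma called 0 of 13, against 0.0552% of all genes. Before adjustment (p under 0.05) 0 were higher in PDAC and 3 lower, against 6.5% and 6.86% of all genes. The median difference of the 13 was -0.03. Itga2, the alpha chain of an epithelial collagen-binding integrin, had 6.05, 8.07 and 8.59 in PDAC replicates 1, 2 and 3, against 12.32 and 12.00 in normal ductal replicates 1 and 2, a difference of -4.59 (SE 0.89, adjusted p = 0.211). Every PDAC value lies far below both normal ductal values. The collagen-binding anthrax toxin receptors had differences of opposite sign. Antxr2 had 9.16, 9.38 and 9.31 in PDAC replicates 1, 2 and 3, against 10.54 and 10.14 in normal ductal replicates 1 and 2 (-1.05 (SE 0.16, adjusted p = 0.174)), and Antxr1 had 10.31, 10.34 and 10.51 in PDAC replicates 1, 2 and 3, against 7.29 and 9.51 in normal ductal replicates 1 and 2 (1.98 (SE 0.73, adjusted p = 0.384)). Ddr2, a receptor kinase for fibrillar collagen, had 10.49, 10.54 and 9.85 in PDAC cultures, against 7.16 and 9.70 in normal ductal cultures (1.86 (SE 0.87, adjusted p = 0.5)). Without normal ductal replicate 2, the Antxr1 difference was 3.09 and passed (adjusted p = 0.0158).

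Among proteins that bind or organise fibrils, limma called 0 of 24, against 0.0552% of all genes. Before adjustment (p under 0.05) 3 of the 24 were higher in PDAC and 0 lower, against 6.5% and 6.86% of all genes. The median difference was 0.69, and 9 of the 24 had a value in normal ductal replicate 2 over 1 above that in replicate 1, against 2.93% of all genes. Matn2, a matrilin of the filamentous matrix, was the closest to a call, with 8.22, 8.20 and 7.93 in PDAC replicates 1, 2 and 3, against 5.73 and 5.79 in normal ductal replicates 1 and 2. The groups are well apart and each is tight, a difference of 2.35 (SE 0.12, adjusted p = 0.0786). Its adjusted p lay under 0.05 in 5 of 12 alternatives, among them 0.0285 after quantile normalization, 0.0232 with arrays at a common median and 0.0475 without the dimmest genes. Fbn2, a microfibril protein, had 7.30, 7.42 and 7.00 in PDAC cultures, against 5.54 and 6.42 in normal ductal cultures (1.26 (SE 0.32, adjusted p = 0.28)). Tenascin C (Tnc, -1.16 (SE 0.43, adjusted p = 0.391)) and thrombospondin 1 (Thbs1, -0.53 (SE 0.26, adjusted p = 0.524)) were below both normal ductal values in every PDAC culture without passing.

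Of the collagen-degrading proteases and their inhibitors, limma called 0 of 15, against 0.0552% of all genes. Before adjustment (p under 0.05) 0 were higher in PDAC and 1 lower, against 6.5% and 6.86% of all genes. The median difference of the 15 was -0.02. Mmp9, a gelatinase that cuts denatured collagen, had 6.05, 6.75 and 5.91 in PDAC replicates 1, 2 and 3, against 10.54 and 8.20 in normal ductal replicates 1 and 2, a difference of -3.13 (SE 0.82, adjusted p = 0.285). The normal ductal arrays themselves differ here, replicate 2 minus replicate 1 being -2.34. Timp2, a metalloproteinase inhibitor, had 11.31, 11.85 and 11.36 in PDAC cultures, against 11.08 and 10.81 in normal ductal cultures (0.56 (SE 0.22, adjusted p = 0.415)). In this list 7 of 15 had a value in normal ductal replicate 2 over 1 above that in replicate 1, against 2.93% of all genes.

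**Figure D5:**
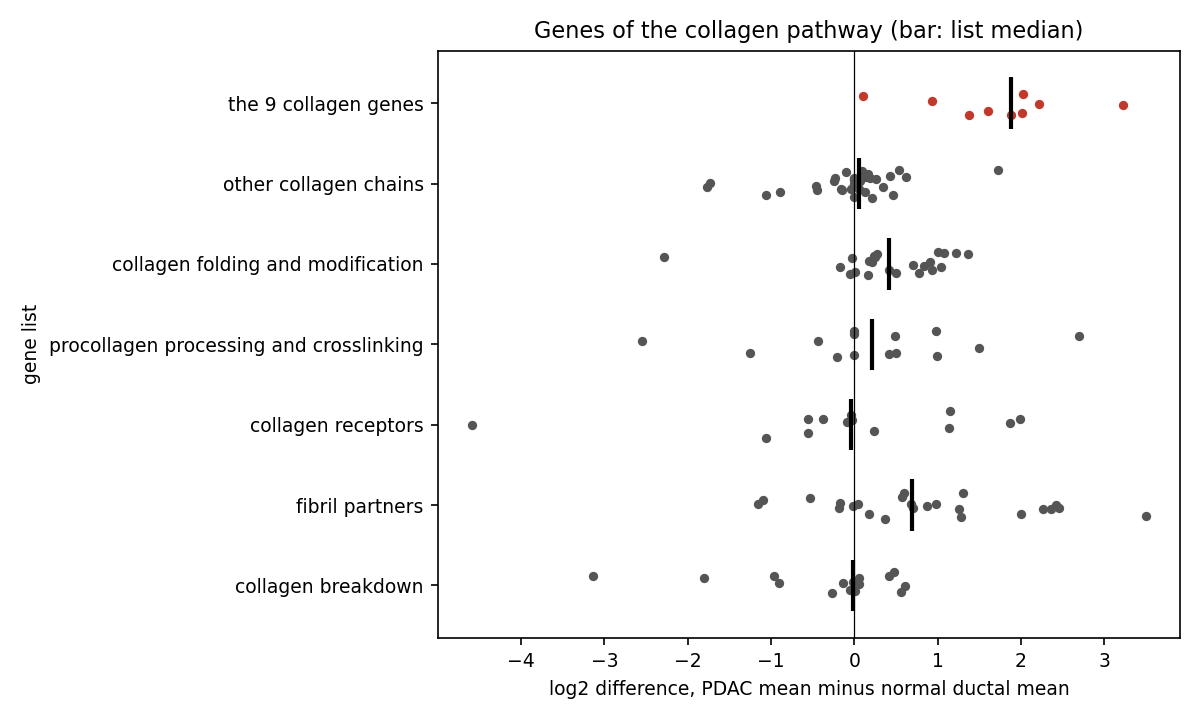
Each point is 1 gene, the horizontal axis is the PDAC mean minus the normal ductal mean (log2), rows are gene lists and black bars list medians. The 9 collagen genes, chosen on these arrays, have a median of 1.88; the medians of the other lists run from -0.03 (collagen receptors) to 0.69 (fibril partners).

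Of all 19938 genes, limma called 1 higher (0.00502%) and 10 lower (0.0502%) in PDAC. Array medians lay between 5.90 and 6.02. The file has no detection calls, and 47.8% of genes, Col6a3 among them, hold the same value on at least 2 arrays, which is 1 more limit on how finely arrays can be told apart.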

How the data were processed

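The authors deposited 1 table of log2 signals, 35556 probe sets on 5 Affymetrix whole-transcript arrays. The submitters' processing notes name Transcriptome Analysis Console 1.0.0.234 and mm10. How background was corrected, arrays normalized and probes summarised is not stated there, nor is the log base, which was taken as 2 from the values (0.727 to 13.9); another base would change fold changes only.

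Names came from the platform annotation, in which 21789 probe sets had 1 symbol, 1621 several and 12146 none here. For a gene with several probe sets (999 genes) the highest mean was used, which left 19938 genes. All were tested with limma 3.58.1 in R 4.3.3 (linear models with empirical Bayes moderation and a variance trend on intensity, two-sided, residual df 3, prior df 0.91), Benjamini-Hochberg adjusted p and a threshold of 0.05, and the fit was tested on simulated data. The 9 collagen genes were in the fit and the adjustment, and their p-values are not given. SE is limma's moderated standard error. Not analysed here, for want of a named probe set, were Fkbp10, Adamts2, Loxl2, Gp6, Fbn1 and Mmp15, and some markers.

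The collagen genes, the 6 pathway lists and the 9 marker lists were chosen with earlier results of these data known. Named from a pathway list were its calls or else, in each direction, the 2 genes with the smallest p among those whose groups do not overlap; from a marker list, the 2 with the largest difference between normal ductal arrays. Figures used Python 3.11.15 and matplotlib 3.10.9. Alternatives were 2 scalings, a filter on dim genes, 2 variance models, the mean of probe sets, the replicate number as a block and leaving out each culture.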

Additional observations from a re-analysis of the deposited data

How the results depend on the processing

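Under the 9 alternatives read for them, the differences ran from 3.12 to 3.36 for Col6a1 and from 2.06 to 2.35 for Col6a2. The 9 are not all separate checks. The mean of probe sets cannot change a gene with 1 probe set, and the replicate block gave the same differences as leaving out PDAC replicate 3. The rule also chose this pair on these same arrays. The other 7 collagen genes moved with the cultures used. Without normal ductal replicate 1 the difference was 0.55 for Col1a1, 0.00070 for Col1a2, 0.80 for Col3a1, 0.18 for Col5a1, -0.17 for Col5a2, 1.05 for Col6a3 and -0.96 for Col12a1, and without replicate 2 it was 3.21, 3.21, 3.25, 1.69, 2.92, 2.96 and 1.16. Without PDAC replicate 1 it was -0.85 for Col12a1, 1.23 for Col6a3 and 0.89 for Col5a2. Without PDAC replicate 2 or 3 it was 0.50 or 0.64 for Col12a1, and without PDAC replicate 3 it was 2.42 for Col1a2. The number of genes called higher and lower in PDAC was 1 and 10. Quantile normalization gave 10 and 32, a common array median 23 and 57, and leaving out the dimmest 25% of genes 3 and 10. The median difference of all genes became 0.04 and 0.10 with these scalings. With the replicate number as a block limma called 0 and 0 (1104 and 1110 before adjustment). No normal ductal culture has number 3, so PDAC replicate 3 adds nothing to the differences of this fit. The labels do not say that a number marks shared material. Deviations of same-numbered cultures from their group means had correlations over genes of -0.18 and -0.04. The deviations of the 2 normal ductal cultures mirror each other. These correlations are therefore not separate checks and cannot settle whether a number marks shared material. Leaving out 1 culture gave from 0 to 980 higher and from 0 to 865 lower genes, with 0 and 0 without PDAC replicate 1, 2 or 3 (before adjustment, p was under 0.05 for 955, 934 and 1416 higher genes and for 994, 1061 and 1335 lower ones), 980 and 307 without normal ductal replicate 1, and 125 and 865 without normal ductal replicate 2. Calls in the 6 pathway lists, all 0 at first, reached 1 among fibril partners (Matn2) under both scalings, without the dimmest genes and without either normal ductal culture (0 to 1 over the left-out cultures). They ran from 0 to 3 among other collagen chains (Col23a1, Col4a5 and Col9a1 without normal ductal replicate 1, Col4a3 and Col9a1 without replicate 2; Col9a1, with equal values on the PDAC arrays, turned direction, at 0.15 and -0.22), from 0 to 1 among receptors (Antxr1, without normal ductal replicate 2) and from 0 to 1 in collagen breakdown (Mmp8, without normal ductal replicate 1). With 1 normal ductal culture, its spread is taken to be that of the PDAC cultures. Col23a1, like Col9a1, holds equal values on the PDAC arrays, and normal ductal replicate 1 holds that Col23a1 value too. Its difference of 0.33 without normal ductal replicate 1 thus rests on a measured PDAC spread of 0. The number of arrays and the lack of detection calls limit the precision.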
